A study of Gallus gallus and Anas platyrhynchos and Coturnix japonica with 11 samples.

Results

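The miRNAs of the quail face were compared with those of the chicken face in the mesenchyme of the frontonasal prominence (FNP), the embryonic swelling from which the upper beak forms. Of 10 biological samples sequenced from 3 bird species, 6 entered the comparison, in 7 of 11 libraries. Quail had 1 sample at Hamburger-Hamilton stage 20 (HH20) and 1 at HH25, each from the pooled FNP mesenchyme of 40 embryos. Chicken had 2 samples at each stage, the first from 40 embryos and the second from 5, and the second sample at HH25 was the mean of 2 sequencing runs. The 4 duck samples entered no main fit, and their values are given beside these and in alternative fits that are named as such. All embryos came from eggs incubated without any treatment, and in all of them the surface ectoderm and forebrain neuroectoderm had been removed from the mesenchyme with dispase and needles. With 1 quail sample at a stage there was no quail replicate. In the fit over both stages the spread came from the chicken samples and the 2 quail samples once stage had been allowed for. In the tests at each stage and of the interaction between species and stage, it came from the chicken samples alone. The 2 samples of each chicken stage were labelled as separate biological samples but also differed in pool size.

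Chicken and quail are closely related galliform birds with short conical beaks, and quail cells transplanted into chick embryos have long been used to trace the neural crest, which forms the FNP mesenchyme. A miRNA is a small RNA of about the length of the sequences printed here, cut from 1 arm of a hairpin precursor, that pairs with messenger RNAs mainly through its seed, bases 2 to 8, and lowers their output. The other arm of the hairpin is often called the star strand (*). Mature sequences of old miRNAs hardly differ between birds, whereas star strands and miRNAs of recent origin are less constrained. The reads of all species were mapped to mature chicken and human sequences with up to 2 mismatches, so for quail a low level of a miRNA and a quail sequence that departs from the chicken one cannot be told apart.

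The miRNAs on which the comparison turned are shown first, since a quail difference can be read against the exact chicken sequence counted. Seeds are in capitals, and all sequences run 5′ to 3′ as the deposited files give them. The first 5 had both quail samples below every chicken sample and the next 3 above. They are 8 of the 19 named by the rule given with the processing steps. miR-1329, miR-184, miR-31, miR-2131*, miR-3529 and miR-205a had the smallest p of the 19. miR-460b-5p and miR-460a* are shown although miR-378 and miR-3535 had smaller p. Each of the 8 has a seed held by no other miRNA measured, as have all of the 19 except miR-107.
miR-1329: uACAGUGAucacguuacgaugg
miR-184: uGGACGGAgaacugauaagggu
miR-31: aGGCAAGAuguuggcauagcug
miR-2131*: cUGUUACUguucuucugaug
miR-460b-5p: uCCUCAUUguacaugcugugug
miR-3529: aGGCAGACugugacuuguugu
miR-205a: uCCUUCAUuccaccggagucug
miR-460a*: cACAGCGCauacaauguggauu
None of these 8 lay within 2 mismatches of another miRNA measured, the limit used in mapping. In the RefSeq annotation of the chicken genome (assembly GRCg7b), the hairpins of miR-2131 and miR-31 lie on the Z chromosome, those of miR-184 and miR-3529 on chromosome 10, that of miR-1329 on chromosome 3, that of miR-205a on chromosome 26, and those of miR-460a and miR-460b on chromosomes 2 and 4.

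No miRNA passed the test between quail and chicken over both stages, fitted with stage as a term. Levels are in PMMR, the deposited read count of a miRNA scaled to the size of its library. The limma test on log2(PMMR + 1) called 0 miRNAs (0%) at an adjusted p of 0.05 over all miRNAs measured, and 17 (9.14%) lay under 0.05 before adjustment. limma voom on the same reads, with the library totals, also called 0, with 15 under 0.05 before adjustment. Not all models gave 0, since DESeq2 on the recovered reads called several, as the part on the processing states. What follows is therefore a description of values, and "above" and "below" are said of the samples measured. Both quail samples lay above all 4 chicken samples for 32 miRNAs (17.2%) and below all 4 for 10 (5.38%). The difference was above 0 for 128 miRNAs (68.8%), and the median over all miRNAs was 0.33 on the log2 scale, so a difference near 0.33 was that of a typical miRNA. Whether this shift came from the scaling or from the miRNAs was not tested. After median-centring of each sample that median was -0.06.

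The libraries were alike in depth. Those of quail held 4392404 reads at HH20 and 3097711 at HH25, and those of chicken 3658272 to 7264459, so 1 read was worth 0.138 to 0.323 PMMR. No miRNA had 3 reads or fewer in quail, whose lowest values rested on 18 reads at HH20 and 7 at HH25. The miRNAs measured took 59.8% of the quail reads at HH20 and 73.8% at HH25, against 61.9% and 53.5% in chicken at HH20 and 71.5% and 64.1% at HH25. The difference of 4.04 percentage points had p = 0.333 in an exact two-sided permutation test within stage, in which 9 assignments allow no p below 0.111. The first chicken sample at HH25 stood apart. Over 4-fold from the mean of the remaining samples were 44 miRNAs there and 3 to 15 in any other sample, and without it the same fit called 9 miRNAs, 5 higher and 4 lower in quail. The 5 were miR-34c, miR-3529, miR-205a, miR-302c and miR-460a*, and the 4 were miR-184, miR-1329, miR-31 and miR-1261. miR-34c, a miRNA that p53 induces in mammals, stood at 467 PMMR in the sample left out and at 13.2, 6.46 and 4.22 PMMR in the other chicken samples, against 136 and 54.2 PMMR in quail, so that with all samples it overlapped. The fit without that sample held 1 chicken sample at HH25 and no quail replicate. Its differences are therefore given below without p-values. The median difference over all miRNAs in that fit was 0.38, beside 0.33 with all samples.

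By the overall size of the differences, quail samples lay about as far from chicken samples as these lay from each other. The median absolute log2 difference over all miRNAs was 0.65 between the 2 chicken samples at HH20, and 0.65 and 0.73 between the quail sample and each of them. At HH25 it was 1.18 between the 2 chicken samples, and 0.96 and 0.73 between quail and each of them. The 2 quail samples, which differ in stage, had the smallest value of the 15 pairs, 0.51. At HH20, 60 miRNAs differed at least 2-fold between the chicken samples, and 65 and 73 between quail and those samples. Both quail samples and the first chicken samples pooled 40 embryos and the second chicken samples 5.

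**Figure D1:**
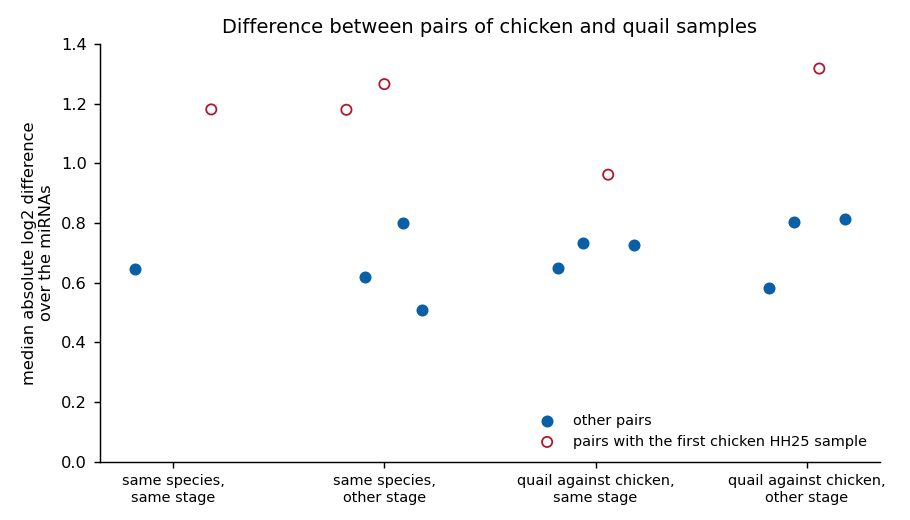
Median absolute log2 difference over all miRNAs measured, on the vertical axis, for each of the 15 pairs of chicken and quail samples, grouped by species and stage. Open circles are pairs that include the first chicken sample at HH25, at 0.96 to 1.32, and the 2 quail samples give the lowest point, 0.51.

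The largest log2 difference was that of miR-1329, a miRNA annotated in chicken whose function is not known. In the chicken samples at HH20 its normalised read count was 244 and 122 PMMR, and in those at HH25 it was 194 and 343 PMMR. In quail it was 12.3 PMMR at HH20 and 15.5 PMMR at HH25, from 54 and 48 reads. Every chicken sample lay far above both quail samples, by 9.94-fold to 22.1-fold within a stage. The log2 difference was -3.84 ± 0.61 (SE), with a 95% interval from -5.28 to -2.40 and an adjusted p of 0.0744. The duck samples held 63.1 to 193 PMMR, between the quail and the highest chicken values, so that quail was the lowest of the 3 species in every sample. Without the first chicken sample at HH25 the difference was -4.00. It passed the limma test with the 4 duck samples in the fit, at an adjusted p of 0.00239.

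miR-3529 had the largest gap in the other direction for its spread. The chicken samples held 120 and 105 PMMR at HH20, and at HH25 they held 90.2 and 76.0 PMMR. Quail held 489 PMMR at HH20 and 623 PMMR at HH25, so that the lowest quail value was 4.07 times the highest chicken value of its stage. The 4 duck samples held 8.50 to 13.6 PMMR, which set the 3 species apart without overlap, quail highest and duck lowest. The log2 difference between quail and chicken was 2.50 ± 0.51 (SE), with an adjusted p of 0.154. The difference was the same, 2.50, without the first chicken sample at HH25. It passed the limma test with duck in the fit, at an adjusted p of 0.0120.

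The miR-3529 hairpin overlaps that of miR-7-2 in the RefSeq annotation of the chicken genome. Its mature sequence is the antisense counterpart of a miR-7 star strand. Read as its reverse complement, it differs from miR-7-1* at 2 of 20 compared bases. The pair is printed for this reason, with the seed of the mature strand in capitals.
miR-3529, reverse complement: acaacaagucacagucugccu
miR-7-1*: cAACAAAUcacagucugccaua
miR-7-1* was counted at 44.6 and 37.5 PMMR in quail and at 12.8 to 37.1 PMMR in chicken, with a log2 difference of 0.74 ± 0.70 (SE). miR-7 itself, a conserved miRNA of neural and endocrine cells, overlapped between the species, at 476 and 386 PMMR in quail and 81.1 to 1165 PMMR in chicken. The wide gap of miR-3529 was not matched by these 2 strands. Neither is named for the miR-7-2 hairpin alone, so the output of the overlapping hairpin by itself was not measured.

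**Figure D2:**
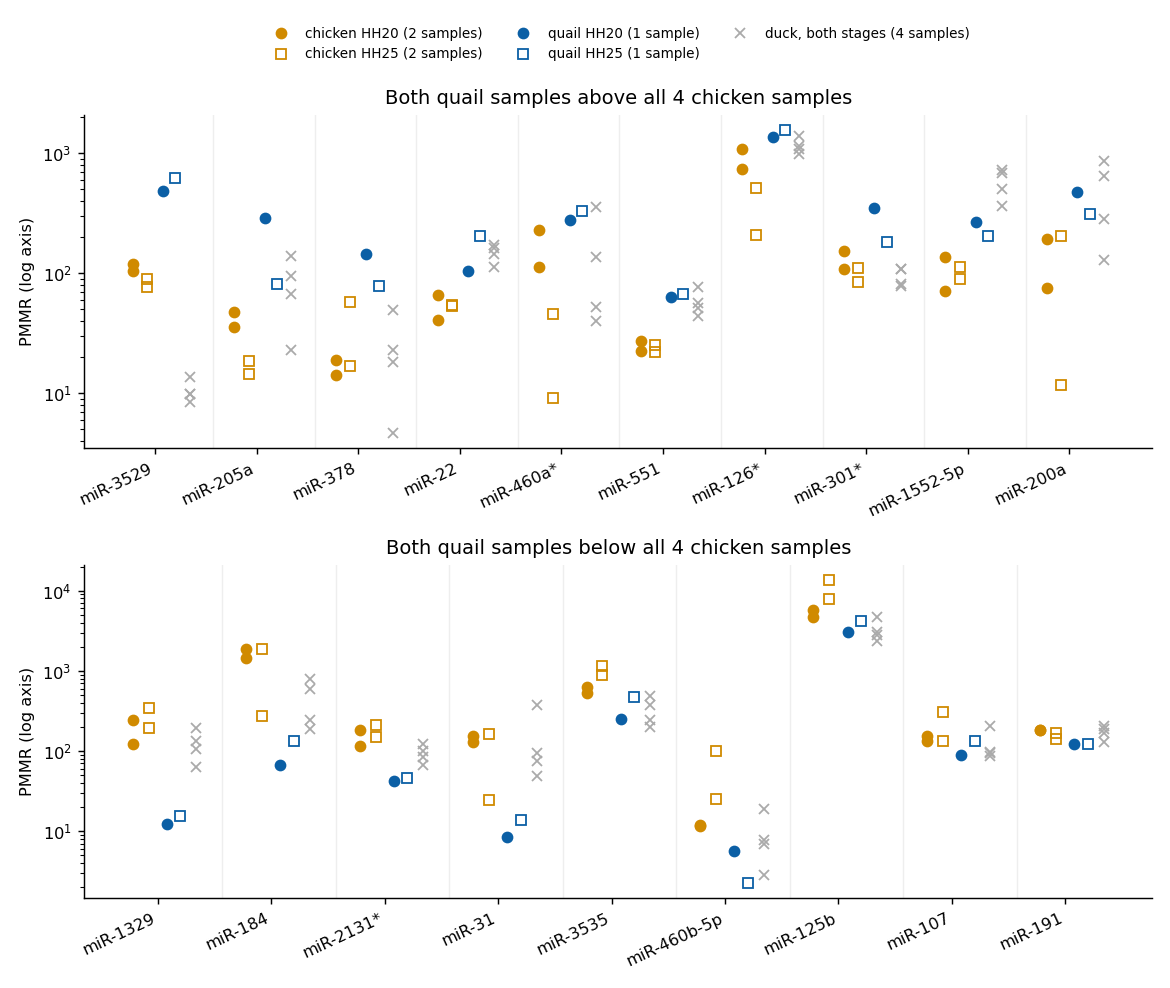
Normalised read counts in PMMR, on a log axis, of the miRNAs named by rule, 10 of the 32 with both quail samples above all 4 chicken samples (upper panel) and 9 of the 10 with both below (lower panel), 1 point per sample. Orange is chicken, blue quail and grey duck, filled circles are HH20 and open squares HH25. For miR-3529 the species fall apart, with quail at 489 and 623, and for miR-1329 quail lies at 12.3 and 15.5.

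A pair of miRNAs known from epithelia in mammals lay far below chicken in quail. miR-184, an abundant miRNA of the cornea and lens, stood at 1430 and 1897 PMMR in chicken at HH20 and at 271 and 1890 PMMR at HH25. In quail it stood at 67.2 PMMR at HH20 and 135 PMMR at HH25, below every chicken sample and also below the 190 to 802 PMMR of the duck samples. Its log2 difference was -3.50 ± 0.88 (SE), with an adjusted p of 0.250. miR-31, a miRNA of keratinocytes and hair follicles, stood at 130, 156, 24.6 and 165 PMMR in the 4 chicken samples. Quail held 8.42 and 13.9 PMMR, from 37 and 43 reads, and duck 48.5 to 378 PMMR. Its log2 difference was -3.03 ± 0.91 (SE), with an adjusted p of 0.337. For both miRNAs the first chicken sample at HH25 held the lowest of the chicken values. Without it miR-184 differed by -4.25 and miR-31 by -3.74. RefSeq lists a miR-184b gene that overlaps the miR-184 hairpin. No miR-184b is among the miRNAs measured, and whether its reads were counted as miR-184 was not tested.

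The 5 markers listed for surface ectoderm, a list that leaves out miR-31 and miR-184, lay above 0. This epithelium covers the FNP, and the miR-200 family holds cells in an epithelial state by lowering the transcription factors ZEB1 and ZEB2. All 5 had a difference above 0, as had 68.8% of all miRNAs, with a median of 1.95 beside 0.33 over all miRNAs. For 4 of 5, against 17.2% of all miRNAs, both quail samples lay above all 4 chicken samples. Their summed level was 534 and 252 PMMR in chicken at HH20, 62.6 and 561 PMMR in chicken at HH25, 1287 PMMR in quail at HH20 and 753 PMMR in quail at HH25. The duck sums ran from 417 to 1915 PMMR and overlapped both. Of the chicken sums, that of the first HH25 sample was the lowest, and without that sample the median of the list was 0.90, with all 5 still above 0. With miR-31, another miRNA of epithelia, 5 of 6 lay above 0 and the median was 1.75, or 0.88 without that sample. miR-184, also known from epithelia, is in neither list and lay below 0, at -3.50. None of the 5 was at 0 in any sample. The part of left-over ectoderm in these differences was not tested, and in pooled tissue fewer cells of a type and less RNA per cell cannot be told apart.

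miR-205a, a miRNA of stratified epithelia, hardly moved when that sample was left out. It stood at 35.6 and 47.5 PMMR in chicken at HH20 and 14.5 and 18.4 PMMR at HH25, against 288 and 81.0 PMMR in quail. Within a stage quail exceeded chicken 4.41-fold to 8.08-fold. The log2 difference was 2.51 ± 0.58 (SE) at an adjusted p of 0.223, and 2.48 without the first chicken sample at HH25. The duck samples, at 23.0 to 139 PMMR, overlapped both species. miR-200a stood at 474 and 309 PMMR in quail and at 194, 75.2, 11.8 and 203 PMMR in chicken, where the first sample at HH25 was by far the lowest. Its log2 difference was 2.28 ± 1.10 (SE), and 1.38 without that sample. miR-200b, with 144 and 75.2 PMMR in quail, overlapped the 2.19 to 81.5 PMMR of chicken. RefSeq lists the miR-200a hairpin under the symbol MIR141 and places the miR-200b and miR-429 genes within 10 kb of it, and miR-429 showed the same order as miR-200a, with 339 and 254 PMMR in quail and 22.4 to 235 PMMR in chicken. miR-203, which in mouse skin lowers the stem cell factor p63, stood at 42.1 and 33.9 PMMR in quail and 11.8 to 29.0 PMMR in chicken.

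miR-2131*, of a hairpin known only from birds, lay below chicken in quail with little scatter. Its levels were 116 and 182 PMMR in chicken at HH20, 213 and 151 PMMR in chicken at HH25, 42.6 PMMR in quail at HH20 and 45.5 PMMR in quail at HH25. The duck samples, at 67.9 to 122 PMMR, lay above both quail samples and overlapped chicken. The log2 difference was -1.85 ± 0.55 (SE), with an adjusted p of 0.337. The other arm of the same hairpin, miR-2131, did not share the gap, at 23.7 and 29.7 PMMR in quail and 13.9 to 46.3 PMMR in chicken. The ratio of miR-2131* to miR-2131 was therefore 1.80 and 1.53 in quail, 3.94 to 10.4 in chicken and 3.67 to 5.52 in duck. Both quail ratios lay below every ratio in the other species.

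Such shifts between the arms of a hairpin were looked for wherever both arms were measured. Of 41 hairpins, both quail ratios lay beyond all 4 chicken ratios for 11 (26.8%), a share close to the 22.6% of single miRNAs that did so. In 8 of the 11 the quail ratios lay above those of chicken and in 3 below. Quail ratios lay beyond every duck ratio as well for the hairpins of miR-2131, miR-301, miR-126, miR-106, miR-302b and miR-199. Of these, miR-301 belongs to the miR-130 and miR-301 seed family. The ratio of miR-301* to miR-301 was 0.870 and 0.920 in quail, 0.174 to 0.424 in chicken and 0.0972 to 0.205 in duck. miR-301* alone stood at 351 and 181 PMMR in quail and 83.9 to 152 PMMR in chicken, and its log2 difference of 1.17 ± 0.52 (SE) did not pass, while miR-301 overlapped. For miR-126, a miRNA of endothelium that shapes vessel growth, the ratio of miR-126* to miR-126 was 0.0663 and 0.0686 in quail, against 0.0317 to 0.0473 in chicken and 0.0270 to 0.0460 in duck. miR-126 itself overlapped, at 20420 and 22926 PMMR in quail and 4782 to 29194 PMMR in chicken. The ratio compares 2 sequences that can differ in how well they are ligated and mapped, so only its change between samples is read here.

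**Figure D3:**
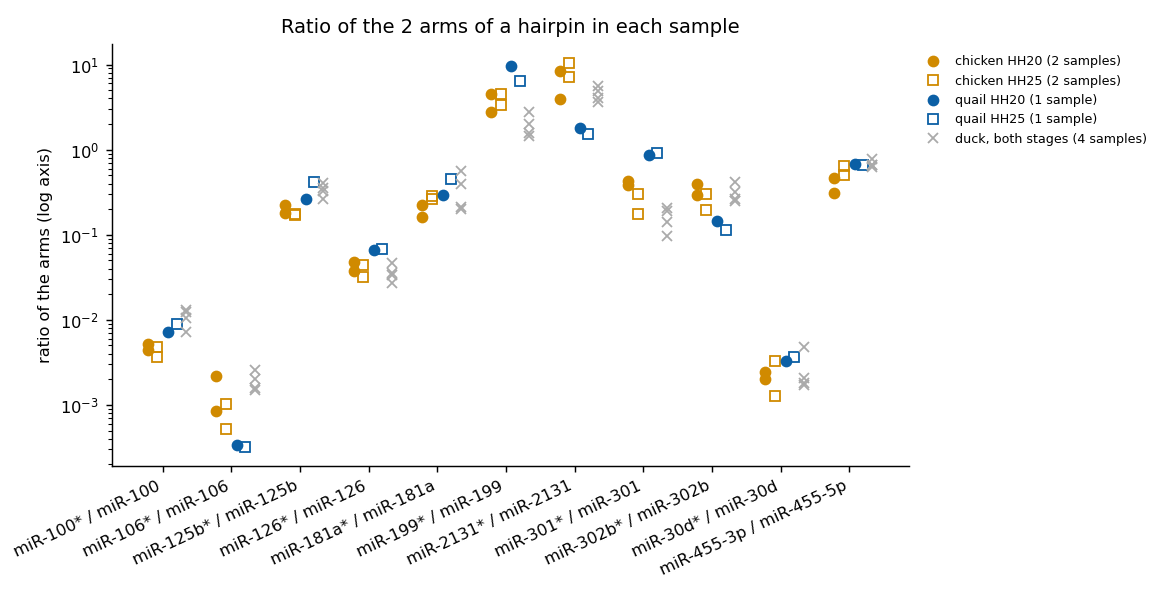
Ratio of the 2 arms of a hairpin in PMMR, on a log axis, for the 11 of 41 hairpins whose quail ratios both lie beyond all 4 chicken ratios, 1 point per sample. Orange is chicken, blue quail and grey duck. For miR-2131* over miR-2131 quail lies at 1.80 and 1.53, below the lowest ratio of the other species, 3.67, and for miR-301* over miR-301 quail lies at 0.870 and 0.920, above the highest, 0.424.

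The miR-460 family, best known from birds and fish, was split. Its 2 genes are on different chromosomes in chicken. miR-460 and miR-460a*, the arms of 1 hairpin, both lay above chicken. miR-460 stood at 311 and 268 PMMR in quail and at 253, 75.2, 9.57 and 182 PMMR in chicken. miR-460a* stood at 277 and 327 PMMR in quail and at 228, 112, 9.02 and 45.8 PMMR in chicken, with a log2 difference of 2.36 ± 0.97 (SE) that did not pass. Without the first chicken sample at HH25, the lowest, it was 1.66, and over the samples left out in turn it ran from 0.79 to 3.92. The median of the family was 1.89, or 0.90 without that sample. For miR-460a* the gap to the nearest chicken sample was small at HH20, 1.22-fold, and was 7.14-fold at HH25. For miR-460 the nearest chicken sample at HH25 held 182 PMMR against 268 PMMR in quail. miR-460b-5p went the opposite way, with 5.69 and 2.26 PMMR in quail, from 25 and 7 reads, and 12.1, 11.8, 99.0 and 25.2 PMMR in chicken. Its log2 difference was -2.46 ± 0.94 (SE), and -1.83 without the first chicken sample at HH25, which held the highest value. Duck, at 2.81 to 18.7 PMMR, overlapped both species, and so did duck for miR-460a*, at 39.6 to 358 PMMR. The seeds of miR-460 and miR-460b-5p are CUGCAUU and CCUCAUU, and these mature strands are too unlike to share reads at 2 mismatches.

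The authors list 6 miRNAs as specific to birds, and their PCR bore this out for all but miR-1451. Of the 6, 4 had a difference above 0 and 2 below. Their median of 0.33 equalled that of all miRNAs, and was -0.05 after centring and 0.60 without the first chicken sample at HH25. Besides miR-2131*, only miR-1559 did not overlap. It stood at 344 and 217 PMMR in chicken at HH20, 323 and 346 PMMR at HH25, and 512 and 591 PMMR in quail, with a log2 difference of 0.86 ± 0.46 (SE). The duck samples, at 531 to 768 PMMR, lay with quail. miR-1451, miR-2131, miR-2954 and miR-2954* overlapped. miR-2954, a miRNA of the Z chromosome that is more abundant in male birds, spanned 1680 to 11992 PMMR in chicken and 6275 to 12565 PMMR in quail. The sex of the pooled embryos is not given in the sources used here.

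Other named miRNAs also had both quail samples above all chicken samples. miR-378, which in mammals sits in a gene of energy metabolism, stood at 144 and 77.5 PMMR in quail and at 18.7, 14.0, 17.0 and 57.4 PMMR in chicken. Its log2 difference was 2.17 ± 0.78 (SE), and duck held 4.64 to 49.4 PMMR, below both quail samples. miR-22, studied for its part in heart muscle, stood at 105 and 205 PMMR in quail and 40.5 to 65.5 PMMR in chicken. miR-551 had chicken values close together, 22.1 to 27.4 PMMR, and stood at 62.8 and 66.8 PMMR in quail, with a log2 difference of 1.38 ± 0.58 (SE). The duck values of miR-22 and miR-551, 114 to 173 and 44.2 to 76.8 PMMR, lay above every chicken value. miR-1552-5p stood at 269 and 203 PMMR in quail, 71.0 to 137 PMMR in chicken and 366 to 731 PMMR in duck, so that quail lay between the other birds.

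Among those below chicken, miR-3535, of unknown function, differed in every sample. It stood at 252 and 466 PMMR in quail and at 524, 636, 900 and 1160 PMMR in chicken, with a log2 difference of -1.16 ± 0.42 (SE). RefSeq lists the miR-3535 hairpin under the symbol of a small nucleolar RNA, SNORD20. miR-125b, a homologue of the worm lin-4 that promotes differentiation, stood at 3014 and 4129 PMMR in quail and at 5816, 4674, 13707 and 7785 PMMR in chicken. Its difference was -1.06 ± 0.44 (SE), and the duck samples, at 2383 to 4737 PMMR, overlapped both species. miR-107 and miR-191 differed by -0.63 ± 0.56 (SE) and -0.44 ± 0.49 (SE), within their error, although no chicken sample reached down to the quail values. For miR-191 these were 122 and 123 PMMR against 141 to 182 PMMR in chicken. miR-107 is 1 mismatch from miR-103, and their reads may not be separable.

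Where differences were at least 2-fold against every chicken sample of the same stage, 9 miRNAs remained (4.84%). Quail lay above for miR-205a, miR-302c, miR-3529 and miR-551, and below for miR-1261, miR-1329, miR-184, miR-2131* and miR-460b-5p. miR-1261, picked here after its values were seen, stood at 7.74 PMMR in quail at HH20 against 52.3 and 19.5 PMMR in chicken. At HH25 it stood at 22.6 PMMR against 118 and 158 PMMR, so the species overlapped across stages but not within them. Duck held 89.1 to 251 PMMR, and the log2 difference between quail and chicken was -2.23 ± 0.67 (SE), with an adjusted p of 0.337.

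Families that mark immature and differentiating cells were compared next. The miR-302 and miR-367 cluster, abundant in pluripotent cells, had 3 of 4 members above 0 and a median of 1.33, or 1.48 without the first chicken sample at HH25. miR-302c stood at 476 PMMR in quail at HH20 against 170 and 238 PMMR in chicken, and at 171 PMMR in quail at HH25 against 73.8 and 28.6 PMMR. Its log2 difference was 1.55 ± 0.61 (SE). miR-302b stood at 613 PMMR against 445 and 306 PMMR at HH20, and at 198 PMMR against 84.7 and 57.7 PMMR at HH25, while its star strand differed by -0.06 ± 0.59 (SE) on the log2 scale. miR-367 had low levels, 15.3 and 3.87 PMMR in quail and 0.75 to 3.01 PMMR in chicken. Of all samples, duck included, only quail at HH20 brought it over the authors' minimum of 15 PMMR. It was thus kept only because quail was high, so its place among the 3 above 0 carries no weight. The 2 quail samples and the chicken samples of the same stage thus kept the same order for miR-302b and miR-302c, each with less at HH25 than at HH20.

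At HH20 and at HH25 alone the median of the cluster, miR-367 included, was 0.98 and 1.18. The let-7 family, which accumulates as cells differentiate, had 8 of 10 members below 0 and a median of -0.31. Its place below 0 rested on 1 sample. Without the first chicken sample at HH25 the let-7 median was 0.01, with 5 of 10 above 0, still below the 0.38 of all miRNAs there. With all samples it was 0.55 at HH20 and -1.16 at HH25, so that at HH20 both families lay above the median of all miRNAs, 0.35. The summed let-7 level was 23507 PMMR in quail at HH20 against 27629 and 11443 PMMR in chicken, and 52771 PMMR in quail at HH25 against 115327 and 68885 PMMR. let-7k stood at 134 and 192 PMMR in quail and at 192, 211, 839 and 672 PMMR in chicken, a log2 difference of -1.27 ± 0.52 (SE). In the miR-99, miR-100 and miR-125 group 6 of 7 members lay below 0, with a median of -0.30, or -0.10 without that sample, and miR-125b was the only one with groups that did not overlap. miR-100 stood at 4243 and 5955 PMMR in quail and 3406 to 18486 PMMR in chicken.

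**Figure D4:**
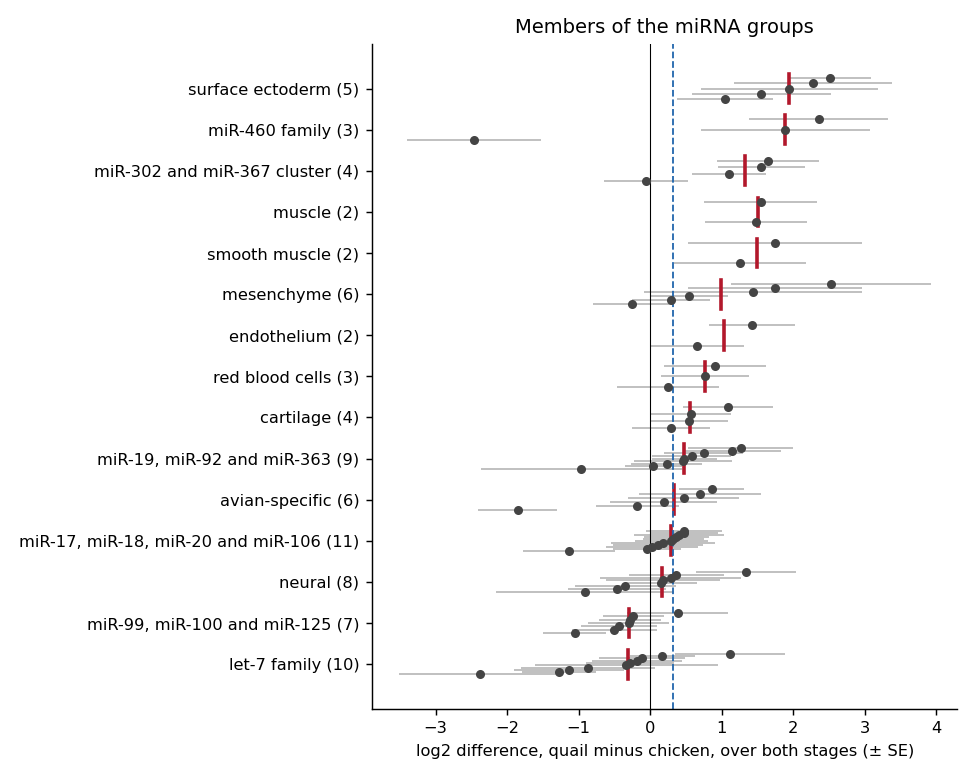
Log2 difference between quail and chicken over both stages, on the horizontal axis, for the members of 15 miRNA groups, with their number in brackets. Points are miRNAs with their SE, red bars the group medians, and the dashed line the median of all miRNAs, 0.33. The surface ectoderm group centres on 1.95 and the let-7 family on -0.31.

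Markers of other cells gave these values. Both muscle miRNAs were above 0, with a median of 1.51, or 1.28 without the first chicken sample at HH25. Their summed level was 265 and 511 PMMR in quail and 43.6 to 346 PMMR in chicken. Most of it was miR-1a, which overlapped, at 260 and 497 PMMR in quail and 43.1 to 342 PMMR in chicken. miR-1b rested on 25 and 41 reads in quail and 3 to 52 in chicken. miR-143 and miR-145 of smooth muscle had a median of 1.50, which was 0.56 without the first chicken sample at HH25, where miR-143 stood at 5167 PMMR against 37422 to 54488 PMMR in the other chicken samples. Quail held 45352 and 80641 PMMR of miR-143. The 3 red blood cell miRNAs were above 0, with a median of 0.76, or 0.38 after centring and 0.44 without that sample. Their sums were 1633 and 1621 PMMR in quail and 369 to 2249 PMMR in chicken. The 4 white blood cell miRNAs were also above 0, with a median of 0.48, or 0.10 after centring. Without that sample the median was 0.29, with 3 of 4 above 0. The sums were 359 and 237 PMMR in quail and 76.3 to 333 PMMR in chicken. The neural list had 5 of 8 above 0, with a median of 0.17 that was -0.21 after centring and 0.48, with 7 of 8 above 0, without that sample, and miR-132 was its only member without overlap. The neurosensory miR-183, miR-96 and miR-182 summed to 2382 and 3164 PMMR in quail and 511 to 8914 PMMR in chicken. miR-122, of liver, spanned 2.19 to 533 PMMR in chicken and 18.7 to 143 PMMR in quail. The part of these cells in the differences was not tested.

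In the mesenchyme list, 5 of 6 members were above 0, as were 68.8% of all miRNAs. The median of the list was 0.99, or 0.09 without the first chicken sample at HH25. miR-199*, a miRNA of mesenchymal cells, stood at 21859 and 18222 PMMR in quail and at 6804, 6161, 258 and 13066 PMMR in chicken. Its log2 difference of 2.53 ± 1.39 (SE) was the largest above 0 of all miRNAs and had an adjusted p of 0.653. It rested on the first chicken sample at HH25, the one at 258 PMMR: without it the difference was 1.21, and its rank from the highest was 25. miR-199, the other arm, overlapped, at 2253 and 2857 PMMR in quail and 57.4 to 3895 PMMR in chicken. miR-21, the most studied miRNA of growing tissue, stood at 29582 and 32998 PMMR in quail and 18764 to 62785 PMMR in chicken. The 4 strands of miR-140 and miR-455, which mark cartilage, were all above 0, with a median of 0.56 that was 0.17 after centring and 0.26, with 3 of 4 above 0, without the first chicken sample at HH25. In this list miR-455-3p stood at 125 and 88.1 PMMR in quail and 27.1 to 69.5 PMMR in chicken. miR-222, which lowers the cell cycle inhibitor p27, stood at 989 and 556 PMMR in quail, against 849 and 952 PMMR in chicken at HH20 and 470 and 442 PMMR at HH25. Its difference of 0.21 ± 0.40 (SE) had a 95% interval from -0.75 to 1.17.

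The differences were then set side by side between the stages, which share no sample. At HH20 and at HH25 alone, limma called 0 miRNAs each (0%), with 5 (2.69%) under 0.05 before adjustment in each. The spread in these tests came from the chicken samples alone. Across all miRNAs measured, the HH20 and HH25 differences had Pearson's r = 0.44 and Spearman's rho = 0.37, and 126 (67.7%) had the same sign. The medians, 0.35 at HH20 and 0.29 at HH25, were both above 0, which by itself raises the share with the same sign. miRNAs are not independent replicates, and the points of both stages share the mapping to chicken sequences. Against the first chicken samples alone r was 0.22, and against the second ones alone it was 0.46. At least 2-fold in the same direction at both stages were 28 miRNAs (15.1%), 21 with quail above and 7 below, while 6 were at least 2-fold in opposite directions. The 7 below were miR-1329, miR-184, miR-31, let-7a*, miR-1261, miR-2131* and miR-3535. For let-7a* at HH20 this rested on the second chicken sample, at 56.3 PMMR. There quail held 4.10 PMMR and the first chicken sample 3.88 PMMR. miR-1329 differed by -3.71 at HH20 and -3.97 at HH25, and miR-3529 by 2.11 and 2.90, whereas miR-184 differed by -4.60 and -2.40.

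**Figure D5:**
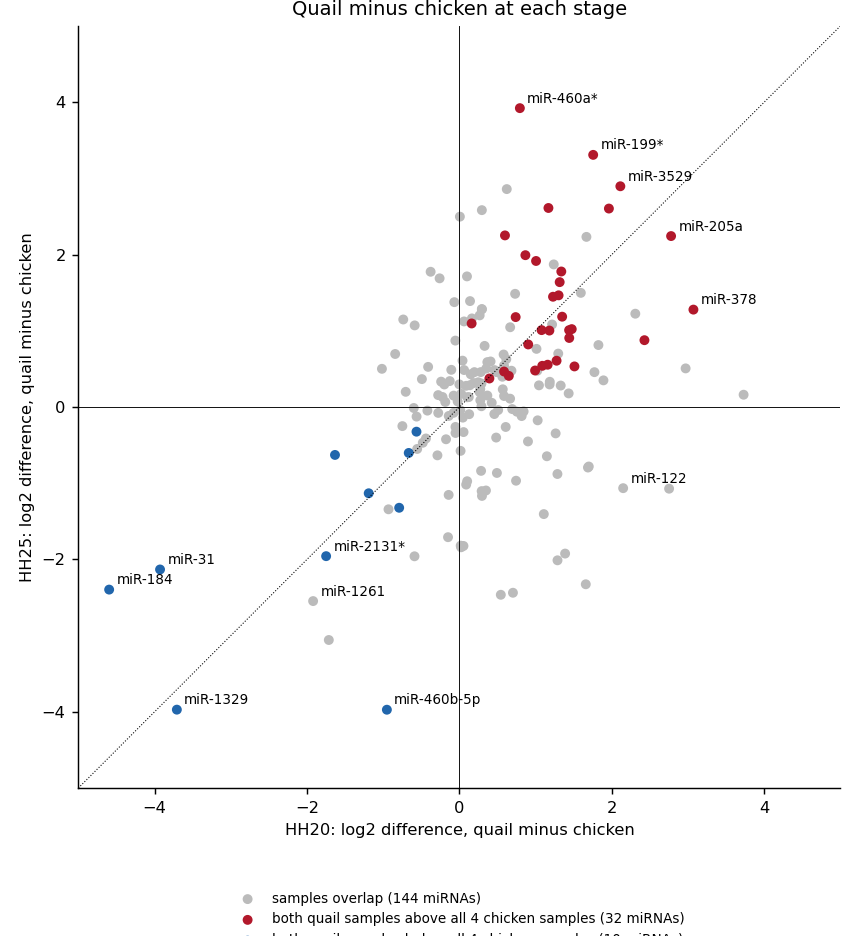
Log2 difference between quail and chicken at HH20 (horizontal axis) and at HH25 (vertical axis) for all miRNAs measured, with equality as the dotted line. Red marks the 32 miRNAs with both quail samples above all 4 chicken samples and blue the 10 with both below, which lie in the upper right and lower left by construction. miR-1329 lies near the line at -3.71 and -3.97.

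The change of the species difference between stages, tested as an interaction, was called for 0 miRNAs (0%), also with 0 under 0.05 before adjustment. The largest interactions for their error were those of miR-460a*, at 3.13 ± 1.81 (SE), let-7b, at -3.98 ± 2.31 (SE), let-7i, at -3.14 ± 1.85 (SE), miR-33, at -3.82 ± 2.29 (SE), and miR-460b-5p, at -3.02 ± 1.87 (SE). let-7b stood at 24.6 PMMR in quail at HH20 against 11.6 and 4.20 PMMR in chicken, and at 30.0 PMMR in quail at HH25 against 519 and 45.5 PMMR. Leaving out the first chicken sample at HH25 left 1 interaction past the threshold, that of miR-122, and leaving out the second left 11.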

How the data were processed

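Small RNA of 20 to 40 bases was sequenced from FNP mesenchyme. After trimming adapters, the authors used miRanalyzer (release 1) to match reads, with up to 2 mismatches, against the mature miRNAs of chicken and human in miRBase 16, and dropped those that reached 15 PMMR in no sample. The deposited values are PMMR, reads scaled to a library's total reads (RPM), of 186 miRNAs. The total stands in the same column and was left out of the miRNA values. Multiplied by it, 100.0% of 2046 values gave whole reads to within rounding. For the chicken HH25 sample sequenced in 2 runs, the mean was used.

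limma 3.58.1 (R 4.3.3) was fitted to log2(PMMR + 1) of the 6 samples with stage and species as terms and an intensity trend, and as 4 groups for each stage and the interaction. Adjusted p-values are Benjamini-Hochberg values over all 186. A fold on this scale understates the change of low miRNAs. Per direction, up to 10 miRNAs of at least 15 PMMR on average with non-overlapping species were named by smallest p, with members of the groups described and the 5 smallest interaction p. miR-1329, miR-31 and miR-460b-5p met that average through chicken, since their quail means lay under 15 PMMR. The members and lists were chosen with earlier results of these data known. Fits were tested on simulated data that held no outlying sample, so that test does not cover the first chicken sample at HH25. Python 3.11.15 with numpy 2.4.6, pandas 2.3.3, scipy 1.17.1 and matplotlib 3.10.9 did the rest. Of 21 miRNAs looked up in RefSeq (GRCg7b) by name, 20 matched.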

Additional observations from a re-analysis of the deposited data

Results flagged for a closer look

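Of the 19 miRNAs named by rule, 3 had a chicken sample that lay apart from the other 3 chicken samples, by a gap to its neighbour that exceeded Dixon's 95% critical value on the log2 scale. All were in the first chicken sample at HH25. miR-184 stood there at 271 PMMR and miR-31 at 24.6 PMMR, each far below the other chicken samples, and miR-107 at 303 PMMR, above them. Chance flags about 1 in 20 such groups. The quail values of miR-184 and miR-31 lay below that sample too.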

How the results depend on the processing

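Over both stages, pseudocounts of 0.1 and 10 PMMR, median-centring, scaling to the reads on these miRNAs, a mean of at least 15 PMMR (167 miRNAs), no intensity trend, limma voom, the first samples only and either run alone each called 0 miRNAs. The fit of all 10 samples called 2, miR-3529 and miR-1329. The planned count models were tried on the recovered reads, which limma voom also used. There edgeR called no miRNA but DESeq2 called several, mostly lower in quail. Their values are not given, since these models were not rerun after the deposited values had been classed as normalized. limma voom with TMM factors is not given either. Here voom used the library totals and, in that form, was chosen after seeing the data. Leaving out 1 sample gave 0 to 9 calls over both stages, 0 to 3 at HH20, 0 to 19 at HH25 and 0 to 11 for the interaction, and 1.92 to 6.16 percentage points for the share of reads. The 9 came without the first chicken sample at HH25 and the 19 and 11 without the second, where the lone chicken sample at HH25 was assumed to vary like the chicken samples at HH20. With the first left out, centring gave 16 calls (3 higher, 13 lower) and duck in the fit 11 (5 higher, 6 lower), both chosen after seeing the data. Quail had no second sample, so the sample number could not pair the species. With it as a replicate block the fit called 0, with 15 under 0.05 before adjustment. None of the 19 named miRNAs changed sign in 380 values over these settings. They were named because the species did not overlap, so leaving out a sample could not change a sign, and other settings hardly could. The constant signs are therefore no check of these differences. With 1 quail sample a stage, no quail spread was measured.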
